A study of Homo sapiens with 48 samples.

Results

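HBL1 cells treated with NGI-1 for 24 h were compared directly with HBL1 cells treated with copanlisib for 24 h, across all measured genes. The comparison was chosen by cell line, time and compound as labelled and covers 4 of the 48 RNA-seq libraries of the series, with 2 libraries for each compound. HBL1 is a human cell line of diffuse large B-cell lymphoma, of the activated B cell-like type, and the labels give its genotype as engineered with Cas9. The NGI-1 group received 5 µM NGI-1 and the copanlisib group received 20 nM copanlisib. Both were grown in advanced RPMI medium with 5% fetal bovine serum. HBL1 cells given the vehicle DMSO for 24 h (2 libraries) serve here as background. The same comparison in HBL1 after 3 h and 6 h, and in TMD8 after 24 h, another Cas9-engineered line of this lymphoma type, is set beside it (2 libraries a group). Each compound was used at a single concentration, so the comparison is between these treatments and not between equal doses. The labels speak of duplicates and do not say whether these were separate cultures. The p-values therefore measure a spread between duplicates, shared over all 48 libraries, which may be technical.

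NGI-1 inhibits oligosaccharyltransferase, the enzyme complex of the endoplasmic reticulum (ER) that transfers a preassembled sugar chain from the lipid dolichol to asparagine residues of new proteins. Unfolded glycoproteins in the ER are sensed by the unfolded protein response, whose ATF6, XBP1 and ATF4 branches switch on genes for chaperones, degradation of ER proteins and amino acid supply. Copanlisib inhibits phosphoinositide 3-kinases (PI3K), with strongest action on the alpha and delta forms, and so acts below the B-cell receptor and its co-receptors. PI3K acts through the kinase AKT, which keeps the FOXO transcription factors out of the nucleus. Activated B cell-like lymphomas depend on chronic B-cell receptor signalling to NF-kB, and several proteins of this pathway are glycosylated.

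The 4 libraries held between 8210976 and 9781352 reads assigned to genes. Within each compound, Pearson's r of log2 CPM over genes was 0.99158 for NGI-1 and 0.9917 for copanlisib, and counts of the duplicates differed by more than sampling noise (chi-square per degree of freedom 3.34 for NGI-1 and 3.63 for copanlisib). CPM is counts per 1000000 reads after TMM scaling. Summed over 6 B-cell markers, the level was 3490 and 3320 CPM in the NGI-1 libraries, against 3710 and 3430 CPM in the copanlisib libraries. With DMSO it was lower, at 2370 and 2260 CPM. For 8 markers of the activated B cell-like type it was 3620 and 3600 CPM with NGI-1 and 3500 and 3630 CPM with copanlisib. With DMSO these markers stood higher, at 4480 and 4460 CPM. In the 6 HBL1 libraries of 24 h (NGI-1, copanlisib and DMSO), the T-cell genes CD3D, CD3E, CD3G and CD2 had 0 reads. Of 6 germinal centre markers, MME, which encodes the antigen CD10, had the fewest reads there (12 in all), while BCL6 had 10957. Their summed level was 221 and 196 CPM with NGI-1 and 258 and 222 CPM with copanlisib. For 12 stromal or epithelial markers it was 19.4 and 20.1 CPM with NGI-1 and 16 and 15.5 CPM with copanlisib. Summed over 11 T and NK cell markers the level was 18.3 and 19.1 CPM with NGI-1 and 25.7 and 25.7 CPM with copanlisib, nearly all of it PRF1. The part of these levels in the results was not tested.

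Differences are given as log2 fold change, NGI-1 minus copanlisib, ± its standard error, with 2 libraries in each group. The standard error is derived from the test statistic of a fit that shares the spread over the 24 groups of all 48 libraries. A gene is called where the Benjamini-Hochberg adjusted p of edgeR's quasi-likelihood test is under 0.05 over all 13881 genes tested. At 24 h, 370 genes were higher with NGI-1 than with copanlisib (2.67% of the genes tested) and 323 were lower (2.33%), so that 4.99% were called in all. Most called differences were small. Their median size was 0.52 on the log2 scale, and the median of all genes was 0.01. At least 2-fold differences were called for 25 higher genes (0.18%) and 70 lower genes (0.504%). Without any test, the libraries of both compounds did not overlap for 24.7% of genes on the higher side and 20.8% on the lower side. DESeq2 called 318 higher and 359 lower. Leaving out a library left its group with a lone library, which is then assumed to vary like the other groups. The calls then numbered between 155 and 237 higher and between 133 and 201 lower, whichever of the 4 libraries was left out.

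**Figure D1:**
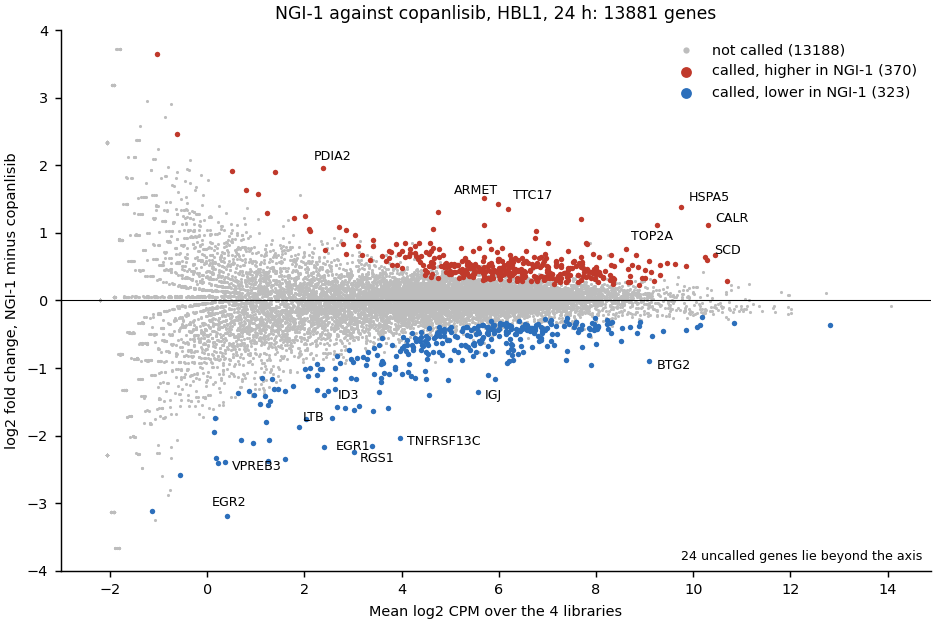
Log2 fold change between NGI-1 and copanlisib in HBL1 at 24 h (vertical axis, positive where NGI-1 is higher) against the mean log2 CPM of the 4 libraries (horizontal axis), 1 point a gene, with the 370 called higher and the 323 called lower genes coloured and some named genes labelled. The called higher genes include ER chaperones between 1 and 2 on the log2 scale, and 24 uncalled genes lie beyond the vertical axis.

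The gene lists differed in direction. Called members were higher with NGI-1 than with copanlisib for mitosis (24 of 28), ER protein folding (17 of 28), and cholesterol and fatty acid synthesis (12 of 34). They were lower with NGI-1 for B cell receptor and identity genes (9 of 30), immediate early genes (5 of 23) and FOXO targets (3 of 22). Over all genes, 2.67% were called higher and 2.33% lower, and these shares are the background for the list counts below.

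**Figure D2:**
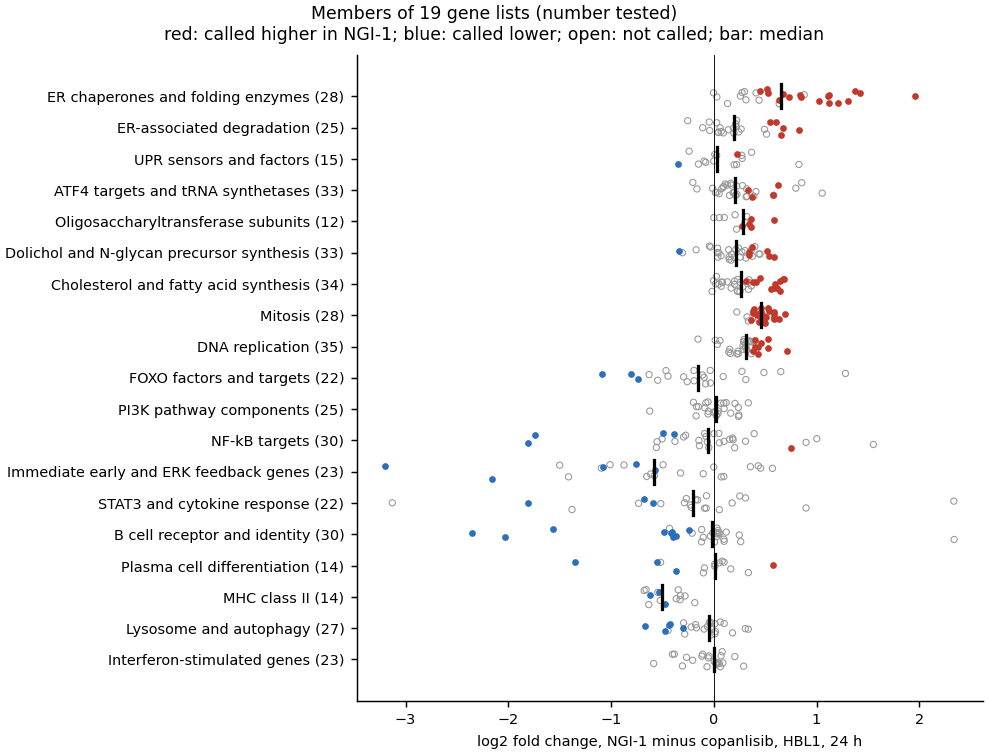
Log2 fold change between NGI-1 and copanlisib in HBL1 at 24 h (horizontal axis) for every tested member of 19 gene lists (rows, with the number tested), 1 point a gene, red where called higher with NGI-1, blue where called lower, open where not called, and a bar at the median. The members of the mitosis list lie between 0.22 and 0.69, whereas the immediate early genes spread down to -3.20.

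The promoters of 4 ER folding genes are shown because they allow the best known target sequence of the unfolded protein response to be looked for. That sequence is the ER stress response element, written as CCAAT, 9 further bases and CCACG, on either strand. Each run gives 250 bases before and 50 bases after the start of the gene, 5′ to 3′ on the strand of the gene, from RefSeq on GRCh38.p14, a later build than the hg19 on which the reads were counted. Capitals mark the element. HSPA5 encodes the chaperone BiP and lies at chr9:125241294-125241593 on the minus strand. CALR encodes calreticulin, a chaperone that binds sugar chains, at chr19:12938359-12938658 on the plus strand. CRELD2 encodes an ER protein induced by ER stress, at chr22:49918384-49918683 on the plus strand. SDF2L1 encodes a cofactor of the ER chaperone system, at chr22:21642052-21642351 on the plus strand.
HSPA5: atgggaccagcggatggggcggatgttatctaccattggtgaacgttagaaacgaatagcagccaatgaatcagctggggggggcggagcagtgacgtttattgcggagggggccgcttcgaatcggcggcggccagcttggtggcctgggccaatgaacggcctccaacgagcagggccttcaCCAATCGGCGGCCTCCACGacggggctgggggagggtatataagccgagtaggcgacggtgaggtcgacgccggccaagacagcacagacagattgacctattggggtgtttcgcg
CALR: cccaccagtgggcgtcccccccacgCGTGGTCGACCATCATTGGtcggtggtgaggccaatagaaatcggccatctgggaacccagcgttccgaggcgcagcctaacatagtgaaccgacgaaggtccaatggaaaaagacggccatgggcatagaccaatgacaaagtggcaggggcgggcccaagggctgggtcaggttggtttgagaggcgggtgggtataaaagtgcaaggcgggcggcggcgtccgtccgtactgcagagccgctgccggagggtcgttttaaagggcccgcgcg
CRELD2: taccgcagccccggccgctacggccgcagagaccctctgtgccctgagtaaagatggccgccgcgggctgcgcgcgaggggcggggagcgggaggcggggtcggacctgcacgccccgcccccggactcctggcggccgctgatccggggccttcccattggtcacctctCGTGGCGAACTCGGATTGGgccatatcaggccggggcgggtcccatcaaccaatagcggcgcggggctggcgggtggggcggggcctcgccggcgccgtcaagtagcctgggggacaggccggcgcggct
SDF2L1: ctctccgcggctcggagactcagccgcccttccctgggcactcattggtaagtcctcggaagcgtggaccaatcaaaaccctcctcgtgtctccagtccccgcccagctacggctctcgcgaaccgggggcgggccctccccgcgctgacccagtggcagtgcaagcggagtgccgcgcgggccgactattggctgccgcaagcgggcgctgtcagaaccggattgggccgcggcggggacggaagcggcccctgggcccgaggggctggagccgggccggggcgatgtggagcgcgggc
The element was found in sense in HSPA5, beginning 66 bases upstream of the start, and in antisense in CALR and CRELD2, beginning 225 and 80 bases upstream. SDF2L1 held no exact match in this window.

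The exact element was rare. It occurred in 27 of 35116 RefSeq promoters of this length (0.0769%), belonging to 25 genes. Among the ER chaperones and folding enzymes it occurred in 9 of 37 promoters (24.3%), from 7 of the 26 genes with a promoter in the table, namely CALR, CANX, CRELD2, ERO1B, HSP90B1, HSPA5 and PDIA6. In the list of ER-associated degradation it was not found in the 22 promoters of 20 genes. Of the 25 genes that carry it, 17 were tested, and 7 of these 17 were higher with NGI-1 than with copanlisib (41.2%, against 2.67% of all genes). The median log2 fold change of the 17 was 0.51. This share largely counts the chaperone list again, because HSPA5, CRELD2, CALR, HSP90B1, CANX and PDIA6 belong to it. ALG12 was the called carrier outside that list, and the others outside it, XBP1 among them, were not called. A match of letters is a description of the sequence and does not show that a factor binds there.

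HSPA5, CALR, CRELD2 and SDF2L1 were all higher with NGI-1. HSPA5 stood at 1400 and 1370 CPM in the NGI-1 libraries, against 506 and 559 CPM in the copanlisib libraries and 723 and 704 CPM with DMSO. Its log2 fold change was 1.38 ± 0.14 (2.6-fold, edgeR adjusted p = 6.5e-09). NGI-1 lay above DMSO and copanlisib below it in every library. CALR had 1970 and 1770 CPM with NGI-1, 879 and 855 CPM with copanlisib, and 1180 and 1080 CPM with DMSO, a log2 fold change of 1.11 ± 0.09 (adjusted p = 2.9e-11). For CRELD2 the levels were 76 and 75.8 CPM with NGI-1 and 35 and 34.7 CPM with copanlisib (1.12 ± 0.11, adjusted p = 5.5e-09). SDF2L1 gave 43.3 and 40.4 CPM with NGI-1 and 18 and 15.7 CPM with copanlisib (1.31 ± 0.16, adjusted p = 4.6e-07). Each of these genes was separated between the compounds, with duplicates close to each other.

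Of the 28 ER chaperones and folding enzymes, all of them tested, 17 were called, each higher with NGI-1, and their median log2 fold change was 0.66. For 25 of the 28 both NGI-1 libraries lay above both copanlisib libraries, as they did for 24.7% of all genes. The summed level of the list was 10800 and 10400 CPM with NGI-1, against 5960 and 6060 CPM with copanlisib and 7180 and 6990 CPM with DMSO. ARMET, the older symbol of MANF, a secreted ER stress protein, differed by 1.43 ± 0.17, with 102 and 105 CPM under NGI-1 and 35.3 and 41.6 CPM under copanlisib. PDIA4, a protein disulfide isomerase, differed by 1.21 ± 0.13, at 315 and 311 CPM with NGI-1 against 133 and 137 CPM with copanlisib. The largest fold change of the list belonged to PDIA2, another isomerase, at 1.96 ± 0.40 (adjusted p = 0.0012), but at low levels of 7.05 and 13.3 CPM with NGI-1 and 2.08 and 3.17 CPM with copanlisib. PDIA2 lost its call without NGI-1 replicate 2 (1.44, adjusted p = 0.087) and without copanlisib replicate 1 (1.67, adjusted p = 0.062). LOC400750, a pseudogene of HSPA5 that can share its reads, had a log2 fold change of 1.91 ± 0.45. It is included in the counts of called genes, although its value may not be separate from that of HSPA5. Its call was lost without NGI-1 replicate 2 (1.67) and without either copanlisib library (1.87 and 1.94).

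**Figure D3:**
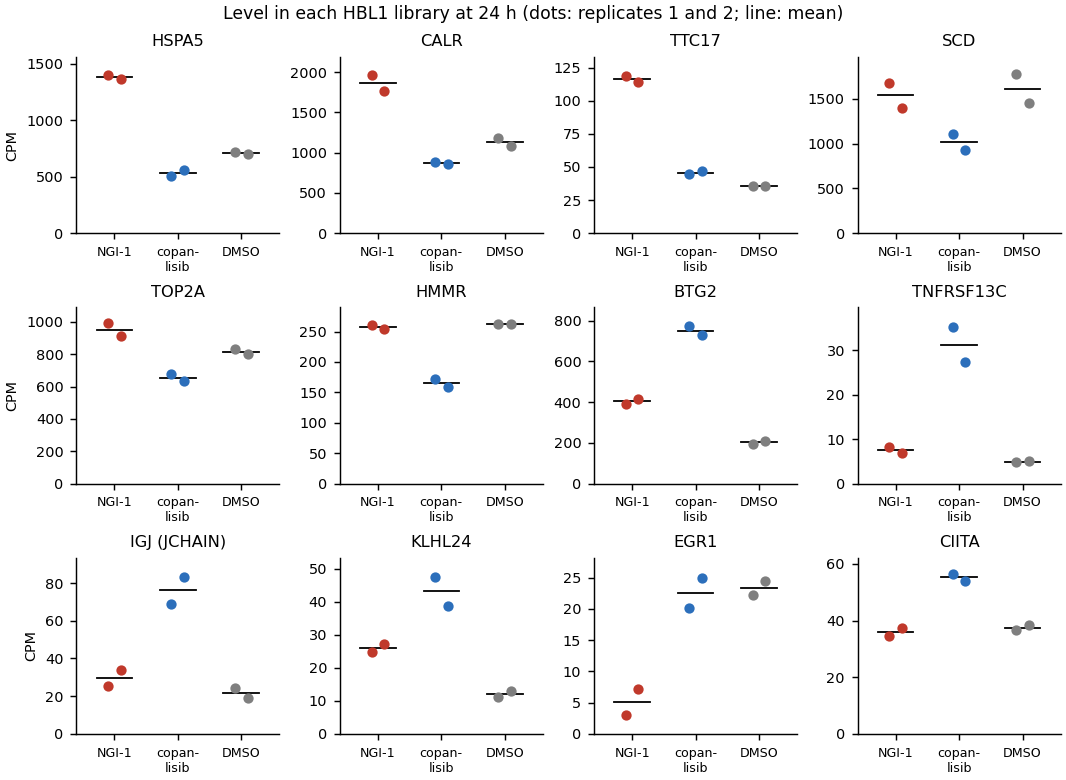
Level of 12 genes in each HBL1 library of 24 h (vertical axis, CPM on a linear scale from 0; horizontal axis, NGI-1, copanlisib and DMSO), 1 point a library and a line at the mean of the duplicates. HSPA5 is highest with NGI-1 (1400 and 1370 CPM) and lowest with copanlisib (506 and 559 CPM), while BTG2 is highest with copanlisib (772 and 729 CPM).

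Against the vehicle, the compounds stood on opposite sides for this list. NGI-1 against DMSO called 17 of the 28 higher (7.95% of all genes were called higher in that comparison), with a median of 0.48. Copanlisib against DMSO called 1 higher (12.7% of all genes) and 11 lower (17.8% of all genes), with a median of -0.28. With NGI-1, 11.4% of all genes were called lower. In either direction 19.4% of all genes were called for NGI-1 and 30.4% for copanlisib. These shares are the background for every later count against DMSO. Both comparisons use the same DMSO libraries and are therefore not independent of each other.

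Genes of ER-associated degradation, which carries misfolded proteins back to the cytosol, moved less. Of 25 members tested, 5 were called, each higher with NGI-1, and the list's median was 0.20. SEL1L, the adaptor of the HRD1 ubiquitin ligase, had 196 and 184 CPM with NGI-1 and 131 and 119 CPM with copanlisib (0.61 ± 0.12, adjusted p = 0.0013). HERPUD1, a stress-induced partner of the same complex, had 401 and 402 CPM with NGI-1 and 253 and 251 CPM with copanlisib (0.67 ± 0.15, adjusted p = 0.0027). DERL2, a channel component, differed by 0.66 ± 0.14. The other called members, EDEM1 (0.55) and the ubiquitin-conjugating enzyme UBE2J1 (0.83), are named to complete the count. Leaving out any of the 4 libraries left 3 calls in this list, and DERL2 was among those lost without copanlisib replicate 1 (0.51, adjusted p = 0.1). UBE2J1 lost its call whichever library was left out (0.79 to 0.87), and EDEM1 without either NGI-1 library (0.54 and 0.56) or copanlisib replicate 2 (0.46).

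Few of the sensors and factors of the unfolded protein response differed in mRNA. Of 15 tested, TMBIM6, an ER calcium channel regulator, was higher (0.22 ± 0.07) and MBTPS1, the protease that activates ATF6 and SREBP, was lower (-0.35 ± 0.08), with a list median of 0.03. TMBIM6 lost its call whichever of the 4 libraries was left out (0.17 to 0.28), and MBTPS1 without either NGI-1 library (-0.33 and -0.36) or copanlisib replicate 2 (-0.32). XBP1 had 375 and 395 CPM with NGI-1, 391 and 374 CPM with copanlisib, and 263 and 258 CPM with DMSO. The NGI-1 and copanlisib libraries overlapped, and the log2 fold change was 0.01 ± 0.12. These are total counts of the gene, in which the spliced and unspliced forms of XBP1 mRNA are not told apart. DDIT3, the stress factor CHOP, had 14.7 and 13.4 CPM with NGI-1 and 7.62 and 8.27 CPM with copanlisib, which did not overlap but missed the threshold (0.83 ± 0.32, adjusted p = 0.15). DDIT3 overlaps MARS1 in the genome, and whether counting used strand is not given in the sources used here.

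Amino acid supply genes and tRNA synthetases, targets of ATF4, were called for 4 of 33 members tested, each higher with NGI-1, with a median of 0.21. WARS, the tryptophan tRNA synthetase, had 265 and 248 CPM with NGI-1 and 192 and 152 CPM with copanlisib (0.57 ± 0.11, adjusted p = 0.00068). The arginine transporter SLC7A1 (0.37 ± 0.09), the serine synthesis enzyme PHGDH (0.62 ± 0.17) and the alanine tRNA synthetase AARS (0.33) were the others, AARS being named after its values were seen. With DMSO the level of WARS was 353 and 291 CPM, above both compounds. Set against DMSO, 16 of the 33 were lower with NGI-1 (11.4% of all genes were lower there). With copanlisib 23 were lower (17.8% of all genes). Without NGI-1 replicate 1, NGI-1 replicate 2, copanlisib replicate 1 or copanlisib replicate 2, the calls of this list numbered 1, 3, 5 and 0. WARS was at 0.41 (adjusted p = 0.079) without copanlisib replicate 2. SLC7A1 and PHGDH lost their calls without NGI-1 replicate 1 (0.31 and 0.42) and without copanlisib replicate 2 (0.27 and 0.38), and AARS without these (0.29 and 0.24) and without NGI-1 replicate 2 (0.37).

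Of 12 subunits of oligosaccharyltransferase, the complex that NGI-1 inhibits, 5 were called, each higher with NGI-1, and the median was 0.29. MAGT1, an oxidoreductase subunit of the STT3B complex, had 150 and 149 CPM with NGI-1, against 95.8 and 103 CPM with copanlisib and 116 and 121 CPM with DMSO (0.59 ± 0.10, adjusted p = 6.7e-05). The catalytic subunit STT3B had 165 and 171 CPM with NGI-1 and 130 and 131 CPM with copanlisib (0.37 ± 0.08, adjusted p = 0.0028). The other catalytic subunit, STT3A, stood at 135 and 124 CPM with NGI-1 against 99.7 and 110 CPM with copanlisib and missed the threshold (0.30 ± 0.10, adjusted p = 0.055). RPN1 (0.34), DDOST (0.27) and OSTC (0.36), which are non-catalytic subunits, were called too, DDOST and OSTC being named to complete the count. MAGT1 and STT3B kept their calls whichever library was left out, whereas the list's count fell to 2 in each case. RPN1 (0.33 to 0.35), DDOST (0.23 to 0.32) and OSTC (0.27 to 0.44) lost their calls each time.

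Enzymes that build the dolichol-linked sugar chain before its transfer were called higher for 6 of 33 members and lower for 1, with a median of 0.22. DPAGT1, which starts the chain and is the target of tunicamycin, had 111 and 119 CPM with NGI-1 and 73.3 and 80.4 CPM with copanlisib (0.58 ± 0.10, adjusted p = 0.00016). The glucosyltransferase ALG8 (0.53 ± 0.10) and the mannosyltransferase ALG3 (0.37 ± 0.09) were also higher, and UAP1, which makes the sugar donor UDP-GlcNAc, was lower (-0.34 ± 0.09). DPAGT1 overlaps the histone gene H2AX. The count of higher members was 2, 3, 2 and 3 without NGI-1 replicate 1, NGI-1 replicate 2, copanlisib replicate 1 and copanlisib replicate 2. ALG3 and UAP1 lost their calls without NGI-1 replicate 1 (0.37 and -0.38), NGI-1 replicate 2 (0.37 and -0.31) and copanlisib replicate 1 (0.31 and -0.24).

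A pair of genes outside these lists had some of the smallest adjusted p-values. TTC17, a protein with tetratricopeptide repeats, had 119 and 114 CPM with NGI-1, 44.5 and 47.1 CPM with copanlisib, and 35.5 and 35.9 CPM with DMSO. The duplicates were close, and the log2 fold change was 1.35 ± 0.09 (2.55-fold, adjusted p = 2.8e-13). PRKCSH, the beta subunit of glucosidase II, which trims glucose from new sugar chains, had 529 and 499 CPM with NGI-1, against 294 and 311 CPM with copanlisib and 314 and 311 CPM with DMSO (0.76 ± 0.08, adjusted p = 6.6e-09). Against DMSO, TTC17 was called higher with NGI-1 (1.71 ± 0.10) and, by less, with copanlisib (0.36 ± 0.10, adjusted p = 0.0056). PRKCSH was called higher than DMSO with NGI-1 (0.72 ± 0.08), while copanlisib did not pass (-0.05 ± 0.08, adjusted p = 0.72).

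Genes of cholesterol and fatty acid synthesis were called for 12 of 34 members tested, each higher with NGI-1, and the median was 0.27. SCD, the stearoyl-CoA desaturase, had 1680 and 1400 CPM with NGI-1, 1110 and 934 CPM with copanlisib, and 1780 and 1450 CPM with DMSO (0.59 ± 0.10, adjusted p = 0.00012). FADS1, the delta-5 desaturase, had 151 and 140 CPM with NGI-1 and 97.1 and 89.5 CPM with copanlisib (0.64 ± 0.09, adjusted p = 5.1e-06). EBP, a sterol isomerase, had 76.7 and 78.2 CPM with NGI-1 and 49 and 54 CPM with copanlisib (0.59 ± 0.10, adjusted p = 7.5e-05). In these genes NGI-1 was close to the vehicle and copanlisib was below it. Against DMSO, 4 members were higher and 3 lower with NGI-1, and 1 was higher and 19 lower with copanlisib. The count against copanlisib was 5 without NGI-1 replicate 1, 12 without NGI-1 replicate 2, and 8 without either copanlisib library. FADS1, EBP and SCD held their calls each time.

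Mitotic genes were higher with NGI-1 across the list. Of 28 members, 24 were called, each higher with NGI-1. For all 28 both NGI-1 libraries lay above both copanlisib libraries, as they did for 24.7% of all genes. Differences ranged from 0.22 to 0.69 with a median of 0.46. HMMR, a spindle-associated protein, had 261 and 255 CPM with NGI-1, 172 and 159 CPM with copanlisib, and 262 and 263 CPM with DMSO (0.64 ± 0.09, adjusted p = 2.8e-06). KIF20A, a kinesin of cytokinesis, had 162 and 153 CPM with NGI-1 and 102 and 93.4 CPM with copanlisib (0.69 ± 0.12, adjusted p = 0.00012). TOP2A, the topoisomerase that disentangles chromosomes, had 991 and 915 CPM with NGI-1 and 678 and 632 CPM with copanlisib (0.54 ± 0.10, adjusted p = 0.00025). The kinase PLK1 differed by 0.49 ± 0.10. Summed over the list, the level was 5960 and 5500 CPM with NGI-1, 4190 and 3980 CPM with copanlisib, and 6100 and 5580 CPM with DMSO. In bulk RNA, fewer cells in mitosis and less of these mRNAs per cell cannot be told apart. Without NGI-1 replicate 1 and without copanlisib replicate 1 the count fell to 13 and 15, and it was 19 and 17 without the other NGI-1 and copanlisib library. Against DMSO, 1 mitotic gene was higher and 1 lower with NGI-1 (median -0.06), while 26 were lower with copanlisib (median -0.53). Over all genes, 7.95% were higher and 11.4% lower with NGI-1, and 17.8% were lower with copanlisib.

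DNA replication genes differed less. Of 35 tested, 9 were called, each higher with NGI-1, and the median was 0.31. The licensing factor CDC6 had 78.4 and 80.5 CPM with NGI-1, 45.9 and 51.2 CPM with copanlisib, and 101 and 95.9 CPM with DMSO (0.71 ± 0.12, adjusted p = 0.00019). CDC45L, the older symbol of the helicase component CDC45, differed by 0.46 ± 0.11 and GINS4, another helicase component, by 0.41 ± 0.10. Unlike the mitotic genes, this list was below the vehicle with both compounds. With NGI-1, 22 members were lower (median -0.36), against 11.4% of all genes. With copanlisib, 34 were lower (median -0.69), against 17.8% of all genes. The calls between the compounds were 2, 2, 1 and 4 without NGI-1 replicate 1, NGI-1 replicate 2, copanlisib replicate 1 and copanlisib replicate 2, so that most rest on all 4 libraries. CDC6 was called each time. CDC45L was at 0.44 (adjusted p = 0.056) without NGI-1 replicate 2 and at 0.37 (adjusted p = 0.16) without copanlisib replicate 1. Among G1 cyclins, CDKs and inhibitors, RBL1, the retinoblastoma relative p107, was the called member of 15 (0.50 ± 0.11), and without NGI-1 replicate 1 it was not called (0.46). GINS4 lost its call without NGI-1 replicate 1 (0.34) and copanlisib replicate 1 (0.29).

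FOXO targets are a known readout of PI3K inhibition, and the promoters of 2 of them are shown for this reason, with the forkhead sequence TGTTTAC, on either strand, in capitals. PIK3IP1 encodes an inhibitor of PI3K at the cell surface and lies at chr22:31292439-31292738 on the minus strand. TSC22D3 encodes the regulator GILZ and lies at chrX:107717013-107717312 on the minus strand. For PIK3IP1 the run is 1 of 2 promoters in the RefSeq table, and for TSC22D3 it is 1 of 4. In each case the promoter with the most matches was printed. Both genes are among the 5 list genes found to hold the sequence, with BCL2L11, FOXO4 and TXNIP. The matches shown therefore do not stand for the list.
PIK3IP1: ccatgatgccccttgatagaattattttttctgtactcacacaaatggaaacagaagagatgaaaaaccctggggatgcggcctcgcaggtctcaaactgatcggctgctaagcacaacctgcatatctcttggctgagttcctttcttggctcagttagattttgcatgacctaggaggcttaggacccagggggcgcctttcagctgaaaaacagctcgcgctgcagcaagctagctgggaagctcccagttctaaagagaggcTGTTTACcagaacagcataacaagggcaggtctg
TSC22D3: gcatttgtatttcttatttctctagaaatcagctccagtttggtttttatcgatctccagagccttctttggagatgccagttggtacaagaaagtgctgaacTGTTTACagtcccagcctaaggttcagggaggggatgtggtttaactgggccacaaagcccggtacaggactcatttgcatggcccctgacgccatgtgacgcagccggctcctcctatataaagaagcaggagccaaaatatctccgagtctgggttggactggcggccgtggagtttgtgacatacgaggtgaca
The sequence lay 16 bases after the start in PIK3IP1 and 147 bases upstream in TSC22D3, in sense in both. It is a short and common sequence, present in 1202 of 35116 promoters (3.42%), and in 5 of the 31 promoters of the 18 FOXO list genes in the table (16.1%). Of 367 tested genes with it, 15 were lower with NGI-1 than with copanlisib (4.09%, against 2.33% of all genes) and 5 were higher (1.36%). Their median of -0.01 was close to that of all genes.

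In the FOXO list, 22 of 30 members passed the filter on low counts and 3 of these were called, each lower with NGI-1 than with copanlisib, with a median of -0.15. KLHL24, a ubiquitin ligase adaptor induced by FOXO factors, had 24.7 and 27.2 CPM with NGI-1, 47.5 and 38.7 CPM with copanlisib, and 11.2 and 13 CPM with DMSO (-0.74 ± 0.13, adjusted p = 0.00033). PIK3IP1 had 24.3 and 18.6 CPM with NGI-1, 40.8 and 34.4 CPM with copanlisib, and 9.86 and 10.2 CPM with DMSO (-0.81 ± 0.20, adjusted p = 0.0091). TSC22D3 had 8.84 and 13.2 CPM with NGI-1, 21.1 and 25.8 CPM with copanlisib, and 4.18 and 6.73 CPM with DMSO (-1.09 ± 0.28, adjusted p = 0.012). In KLHL24, PIK3IP1 and TSC22D3 both compounds lay above the vehicle, with copanlisib highest. Against DMSO, the log2 fold changes of KLHL24 were 1.11 with NGI-1 and 1.85 with copanlisib. Called higher than DMSO were 13 list members with NGI-1 (7.95% of all genes) and 15 with copanlisib (12.7% of all genes). IRS2, an adaptor upstream of PI3K, did not pass the threshold between the compounds (-0.46 ± 0.20, adjusted p = 0.22), and FOXO1 itself was at -0.03 ± 0.13. KLHL24 kept its call whichever library was left out. PIK3IP1 was not without NGI-1 replicate 2 (-0.63, adjusted p = 0.19) or copanlisib replicate 1 (-0.68, adjusted p = 0.16). TSC22D3 was not without NGI-1 replicate 1 (-0.83, adjusted p = 0.29) or copanlisib replicate 2 (-0.94, adjusted p = 0.15).

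Of 25 PI3K pathway components tested, edgeR called none and DESeq2 called 1 lower, while 1 was higher and 1 lower at an unadjusted p under 0.05. The median was 0.02. The catalytic subunits differed by -0.06 ± 0.13 for PIK3CA, 0.21 ± 0.13 for PIK3CB, 0.02 ± 0.14 for PIK3CD and 0.34 ± 0.16 for PIK3CG. PIK3CD, the delta form of B cells, had 274 and 254 CPM with NGI-1 and 268 and 251 CPM with copanlisib.

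BTG2, an antiproliferative gene, had among the smallest adjusted p-values of the lower genes. It stood at 391 and 417 CPM with NGI-1, 772 and 729 CPM with copanlisib, and 195 and 209 CPM with DMSO. The log2 fold change was -0.89 ± 0.07 (1.86-fold lower, adjusted p = 2.9e-11), and both compounds lay above the vehicle. SEPTIN9, a cytoskeletal GTPase, had 57.7 and 57.7 CPM with NGI-1 and 112 and 100 CPM with copanlisib (-0.88 ± 0.09, adjusted p = 1.2e-08), with DMSO between them at 82.4 and 69.1 CPM. MXD4, an antagonist of MYC, was the called member among 32 genes of MYC and ribosome biogenesis (-0.90 ± 0.20), where 2.33% of all genes were called lower. MYC had 190 and 155 CPM with NGI-1 and 239 and 202 CPM with copanlisib, without overlap, and missed the threshold (-0.36 ± 0.14, adjusted p = 0.15). With DMSO it had 338 and 303 CPM, above both compounds. For this list 25 members were lower than DMSO with NGI-1 (11.4% of all genes) and 25 with copanlisib (17.8% of all genes). MXD4 lost its call without NGI-1 replicate 1 (-0.89, adjusted p = 0.054) and copanlisib replicate 1 (-0.78, adjusted p = 0.082).

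NF-kB targets had few calls at 24 h. Of 30 tested, 1 was higher with NGI-1 (2.67% of all genes) and 4 were lower (2.33% of all genes), and the median was -0.06. LTB, the membrane cytokine lymphotoxin beta, had 3.79 and 2.54 CPM with NGI-1, 12.4 and 8.83 CPM with copanlisib, and 0.797 and 0.721 CPM with DMSO (-1.74 ± 0.27, adjusted p = 3.8e-05). NFKBIE, an inhibitor of NF-kB, had 130 and 116 CPM with NGI-1, 183 and 164 CPM with copanlisib, and 258 and 244 CPM with DMSO (-0.50 ± 0.11, adjusted p = 0.0031). These genes thus lay on different sides of the vehicle. TNIP1, a partner of A20, was lower (-0.39 ± 0.09), as was the cytokine IL10 (-1.81 ± 0.52). MIRHG2, the older symbol of the miR-155 host gene and the higher member (0.76), was named after its values were seen. NFKBIA, the main inhibitor of NF-kB, had 54.5 and 49.7 CPM with NGI-1, 62.1 and 64.1 CPM with copanlisib, and 117 and 108 CPM with DMSO (-0.27 ± 0.15, adjusted p = 0.37). TNF (-0.55 ± 0.43) and IRF4 (0.10 ± 0.12) did not pass the threshold. The chemokines CCL3 and CCL4 were under 1 CPM in all 4 libraries, where no difference was detectable. Set against DMSO, 23 of the 30 were lower with NGI-1 (11.4% of all genes) and 19 with copanlisib (17.8% of all genes). LTB kept its call whichever library was left out. NFKBIE was at -0.42 (adjusted p = 0.088) without NGI-1 replicate 2 and at -0.41 (adjusted p = 0.094) without copanlisib replicate 1, and TNIP1 (-0.31 and -0.34) and MIRHG2 (0.50 and 0.61) lost their calls without the same libraries. IL10 was at -1.23 (adjusted p = 0.41) without NGI-1 replicate 1 and at -1.35 (adjusted p = 0.34) without copanlisib replicate 2.

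Of the immediate early genes and feedback genes of ERK signalling, 23 of 27 were tested and 5 were called, each lower with NGI-1, with a median of -0.58. DUSP2, a phosphatase of MAP kinases, had 8.42 and 8.44 CPM with NGI-1, 16.1 and 19.6 CPM with copanlisib, and 28.2 and 31.4 CPM with DMSO (-1.08 ± 0.19, adjusted p = 0.00019). The transcription factor EGR1 had 3.05 and 7.17 CPM with NGI-1, 20.2 and 25 CPM with copanlisib, and 22.2 and 24.5 CPM with DMSO (-2.16 ± 0.54, adjusted p = 0.01). EGR2 was at 0.737 and 0 CPM with NGI-1 and at 3.86 and 3.4 CPM with copanlisib, and its fitted log2 fold change of -3.20 ± 0.62 rests on few reads. For EGR1 the copanlisib libraries overlapped with the vehicle and the NGI-1 libraries lay below it. The transcription factors ETV4 (-0.76) and JUNB (-0.57), called as well, are named to complete the count. Without NGI-1 replicate 1, NGI-1 replicate 2, copanlisib replicate 1 or copanlisib replicate 2, the list's calls numbered 2, 3, 3 and 2. EGR1 was at -1.65 (adjusted p = 0.25) without NGI-1 replicate 1 and at -2.00 (adjusted p = 0.082) without copanlisib replicate 2. ETV4 (-0.89 to -0.65) and JUNB (-0.67 to -0.47) lost their calls each time.

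At 3 h and 6 h the called members of the NF-kB and immediate early lists were higher with NGI-1. After 3 h, 271 genes were higher with NGI-1 than with copanlisib (1.95%) and 160 were lower (1.15%), 3.1% in all. After 6 h, 555 were higher (4%) and 389 lower (2.8%), 6.8% in all. NF-kB targets were called for 15 of 30 members at 3 h (median 0.55) and 23 of 30 at 6 h (median 0.89), each higher with NGI-1. Immediate early genes were called for 8 members at 3 h and 7 at 6 h, each higher. NFKBIA had 152 and 130 CPM with NGI-1 at 6 h, against 65.9 and 59.4 CPM with copanlisib and 173 and 159 CPM with DMSO (1.17 ± 0.14, adjusted p = 1.2e-07). NGI-1 was thus near the vehicle at 6 h and copanlisib well below it, whereas at 24 h both compounds were below it.

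The change of the contrast over time was tested as its own term, 24 h minus 3 h. It was positive for 106 genes (0.764%) and negative for 112 (0.807%), 1.57% in all. At 3 h DUSP2 had 51.2 and 70.8 CPM with NGI-1 and 28.5 and 34.3 CPM with copanlisib, so that NGI-1 was higher there (0.97 ± 0.14) and lower at 24 h. The log2 fold change of DUSP2 differed by -2.04 between these times (adjusted p = 4.4e-07). NFATC1, a calcium-dependent transcription factor, was at 258 and 272 CPM with NGI-1 and at 145 and 138 CPM with copanlisib after 3 h (0.90 ± 0.08), and at 75.5 and 71.7 CPM with NGI-1 and 96.8 and 105 CPM with copanlisib after 24 h (-0.46 ± 0.09). The difference of -1.36 had an adjusted p of 2.1e-09. CLEC17A, a lectin receptor of B cells, changed by -0.97 (adjusted p = 4.9e-08) and RASGRF1, an activator of RAS, by -0.92 (adjusted p = 9.7e-06). In the other direction stood TTC17 (1.12, adjusted p = 1e-06), PRKCSH (0.83, adjusted p = 9.7e-06), the membrane protein gene KIAA0040 (0.73, adjusted p = 7.7e-05) and PLK1 (0.77, adjusted p = 0.0011). KIAA0040 was lower with NGI-1 at 3 h (-0.74) and 6 h (-0.83) and at -0.01 ± 0.08 at 24 h. The log2 fold changes at 24 h itself were -0.26 for CLEC17A and -0.64 for RASGRF1.

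Mitotic genes had a median of -0.15 at 3 h, -0.17 at 6 h and 0.46 at 24 h, and 16 of 28 changed upward between 3 h and 24 h. For NF-kB targets 6 of 30 changed downward between these times, and for immediate early genes 7 of 23. ER chaperones and folding enzymes were higher with NGI-1 at every time, with 18 called at 3 h (median 0.64) and 25 at 6 h (median 0.98). HSPA5 had 4300 and 3720 CPM with NGI-1 and 998 and 1240 CPM with copanlisib after 3 h, and 3480 and 4630 CPM with NGI-1 and 791 and 1030 CPM with copanlisib after 6 h. XBP1 differed by 0.71 ± 0.12 at 3 h and 0.51 ± 0.12 at 6 h and its contrast changed by -0.70 between 3 h and 24 h (adjusted p = 0.015). Of the 693 genes called at 24 h, 177 were called in the same direction at 6 h (25.5% of the 693, and 18.8% of the 944 called at 6 h) and 22 in the opposite direction. At 3 h, 115 were called in the same direction (16.6% of the 693, and 26.7% of 431) and 11 in the opposite one. Called or not, 64.5% of the 693 had the same sign at 6 h (52.3% of all genes). At 3 h it was 67.1% (56.6% of all genes).

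**Figure D4:**
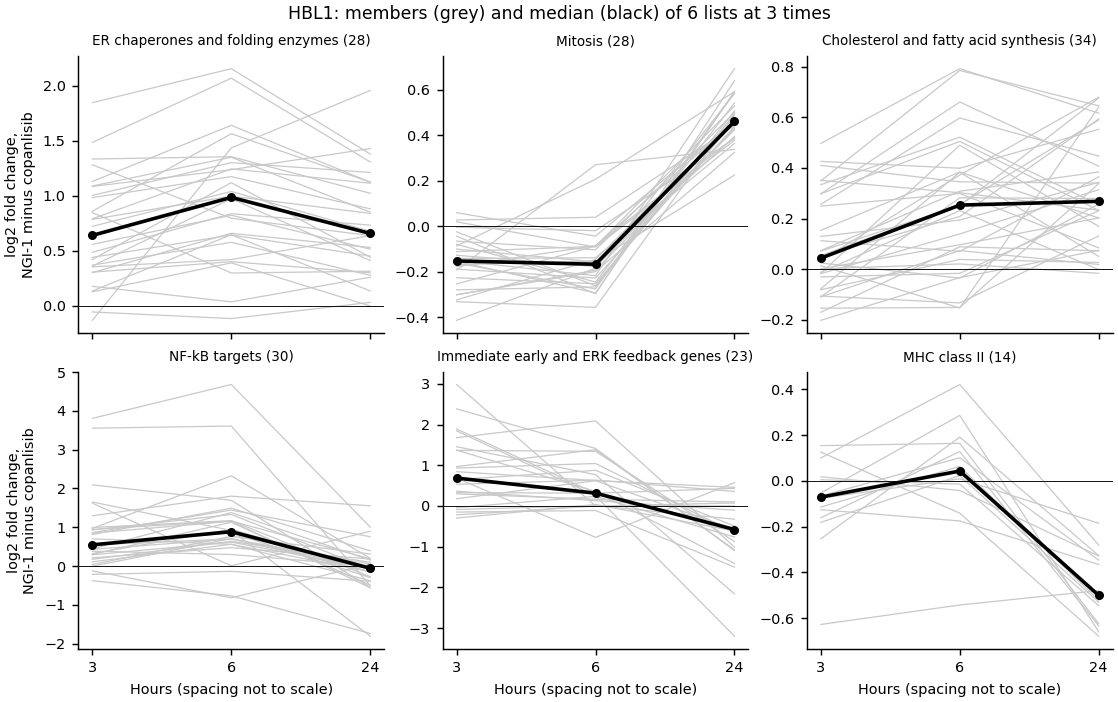
Log2 fold change between NGI-1 and copanlisib in HBL1 (vertical axis, own scale in each panel) after 3, 6 and 24 h (horizontal axis, not to scale) for the tested members (grey lines) and the median (black) of 6 gene lists. The median of the mitotic genes is -0.15 at 3 h, -0.17 at 6 h and 0.46 at 24 h, and that of NF-kB targets 0.55 at 3 h, 0.89 at 6 h and -0.06 at 24 h.

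TNFRSF13C, VPREB3 and ID3, members of the B cell receptor and identity list, were lower with NGI-1. TNFRSF13C, the receptor for the survival factor BAFF, had 8.31 and 6.94 CPM with NGI-1, 35.2 and 27.4 CPM with copanlisib, and 4.78 and 5.05 CPM with DMSO (-2.04 ± 0.21, 4.1-fold lower, adjusted p = 6.6e-09). VPREB3, which resembles the surrogate light chain, had 1.26 and 1.16 CPM with NGI-1 and 5.93 and 6.57 CPM with copanlisib (-2.35 ± 0.39, adjusted p = 0.0001). ID3, an inhibitor of E proteins, had 4.31 and 5.67 CPM with NGI-1, 13.2 and 16.3 CPM with copanlisib, and 3.78 and 2.64 CPM with DMSO (-1.56 ± 0.22, adjusted p = 7.4e-06). Against DMSO, TNFRSF13C, VPREB3 and ID3 were called higher with copanlisib (2.68, 3.99 and 2.17), while NGI-1 did not pass the threshold (0.64, 1.63 and 0.61, adjusted p = 0.092, 0.068 and 0.11). FAIM3, the older symbol of the IgM receptor FCMR, differed by -1.63 ± 0.21, and ICOSLG, a ligand for T-cell costimulation, by -2.07 ± 0.41. RGS1, a brake on chemokine receptor signalling, had 3.16 and 4.16 CPM with NGI-1, 16.3 and 18.2 CPM with copanlisib, and 9.96 and 11.2 CPM with DMSO (-2.24 ± 0.32, adjusted p = 6.6e-06), below the vehicle with NGI-1 and above it with copanlisib. These 6 genes kept their calls whichever library was left out.

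Over the whole list of B cell receptor and identity genes, 9 of 30 were called, each lower with NGI-1, while the median was -0.02. POU2AF1, a coactivator of B-cell transcription, had 986 and 987 CPM with NGI-1, 1310 and 1230 CPM with copanlisib, and 616 and 611 CPM with DMSO (-0.37 ± 0.08, adjusted p = 0.0048). Against DMSO, 12 members were higher and 1 lower with NGI-1, and 19 were higher and 1 lower with copanlisib. Leaving out NGI-1 replicate 1 reduced the count between the compounds to 4, and leaving out copanlisib replicate 2 to 5. Leaving out NGI-1 replicate 2 and copanlisib replicate 1 gave 7 and 6. POU2AF1 lost its call without NGI-1 replicate 1 (-0.36) and copanlisib replicate 1 (-0.32). BCL6, the germinal centre repressor, was at -0.19 ± 0.11.

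Plasma cell genes were called higher for 1 of 14 and lower for 3. IGJ, the older symbol of the immunoglobulin joining chain JCHAIN, had 25.6 and 34 CPM with NGI-1, 69 and 83.2 CPM with copanlisib, and 24.2 and 18.9 CPM with DMSO (-1.36 ± 0.17, adjusted p = 3.8e-07). SEC11C, a subunit of the ER signal peptidase, was higher (0.58 ± 0.15). The other lower members were POU2AF1 and PRDM1 (-0.56), the plasma cell regulator, named to complete the count. PRDM1 lost its call whichever library was left out (-0.63 to -0.47), and SEC11C without NGI-1 replicate 2 (0.41) and copanlisib replicate 1 (0.45). IGJ kept its call each time.

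All 14 MHC class II genes had negative log2 fold changes, between -0.68 and -0.19, with a median of -0.50, and 3 were called. CIITA, their master activator, had 34.5 and 37.2 CPM with NGI-1, 56.4 and 54.1 CPM with copanlisib, and 36.5 and 38.5 CPM with DMSO (-0.62 ± 0.14, adjusted p = 0.0031). HLA-DMB (-0.48 ± 0.13) and HLA-DOA (-0.53 ± 0.16), which control peptide loading, were the other called members. Genes of this family resemble each other and reads can be split between them, so single members are uncertain. The count was 1 without NGI-1 replicate 1, NGI-1 replicate 2 or copanlisib replicate 1, and 2 without copanlisib replicate 2. CIITA was at -0.57 (adjusted p = 0.081) without NGI-1 replicate 1, HLA-DMB at -0.35 (adjusted p = 0.27) without NGI-1 replicate 2 and at -0.35 (adjusted p = 0.29) without copanlisib replicate 1, and HLA-DOA lost its call whichever library was left out (-0.63 to -0.42). Against DMSO, 3 members were higher with NGI-1 (median -0.07) and 6 with copanlisib (median 0.50).

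Cytokine response genes of the STAT3 list were called for 3 of 22, each lower with NGI-1. IL4R, the interleukin-4 receptor, had 105 and 96.6 CPM with NGI-1, 163 and 161 CPM with copanlisib, and 64.7 and 74.6 CPM with DMSO (-0.68 ± 0.09, adjusted p = 2.7e-06). IL4I1, an amino acid oxidase whose locus overlaps others, was at -0.60 ± 0.15 and lost its call whichever library was left out (-0.62 to -0.57), and IL10 was the remaining member. Among the BCL2 family, BIK, a pro-apoptotic member, was called of 15 tested, with 9.79 and 10.5 CPM with NGI-1, 20 and 21.1 CPM with copanlisib, and 11.3 and 11.2 CPM with DMSO (-1.01 ± 0.21, adjusted p = 0.0014). S1PR2, a receptor that confines B cells to germinal centres, was the called member of 17 migration genes (-1.34 ± 0.32), at 1.05 and 0.925 CPM with NGI-1 and 2.27 and 2.83 CPM with copanlisib. It was not called without either NGI-1 library (-1.44 and -1.26) or copanlisib replicate 2 (-1.19).

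Lysosome and autophagy genes were called for 5 of 27, each lower with NGI-1, with a median of -0.04. They were the protease genes CTSD (-0.48 ± 0.12) and CTSB (-0.42), the hydrolase genes HEXA (-0.30 ± 0.09) and GAA (-0.67), and TFEB (-0.44 ± 0.11), the factor that activates lysosomal genes. CTSB and GAA are named to complete the count. The list had at most 1 call when a library was left out. Values then lay between -0.46 and -0.41 for TFEB, -0.36 and -0.24 for HEXA, -0.48 and -0.36 for CTSB and -0.88 and -0.48 for GAA, and CTSD lost its call without either NGI-1 library (-0.52 and -0.44) or copanlisib replicate 2 (-0.42). PSMD2 was the called member of 31 proteasome subunits (0.29 ± 0.08), where 2.67% of all genes were called higher. It lost its call whichever library was left out (0.26 to 0.32). In glycolysis and the pentose phosphate pathway, edgeR and DESeq2 both called 0 of 27, and 4 were higher and 2 lower at an unadjusted p under 0.05.

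Among the remaining genes of largest difference, several were low or variable. AHNAK, a large scaffold protein, had 118 and 66.7 CPM with NGI-1, 42.2 and 21.7 CPM with copanlisib, and 71.2 and 36.3 CPM with DMSO (1.52 ± 0.43, adjusted p = 0.029). The first library was higher than the second in all 3 groups, and AHNAK lost its call without NGI-1 replicate 1 (1.05, adjusted p = 0.42) and copanlisib replicate 2 (1.13, adjusted p = 0.33). ITM2C, a membrane protein gene, had 5.26 and 4.63 CPM with NGI-1, 1.78 and 2.49 CPM with copanlisib, and 7.57 and 7.57 CPM with DMSO (1.22 ± 0.25, adjusted p = 0.0015). LOC100288073 (1.58 ± 0.46), C11orf75 (1.30 ± 0.39) and LOC644231 (1.25 ± 0.31) were the other higher genes, each under 7 CPM. On the lower side were CLEC18C (-2.38 ± 0.49), whose near-identical copies can share reads, the peptide hormone ADM2 (-2.16 ± 0.50), the meiosis factor STRA8 (-1.88 ± 0.39) and the chemokine CXCL16 (-1.75 ± 0.31). CXCL16 was not called without NGI-1 replicate 1 (-1.22, adjusted p = 0.06) and CLEC18C not without NGI-1 replicate 2 (-1.81, adjusted p = 0.078). ADM2 lost its call without NGI-1 replicate 1 (-2.00) and copanlisib replicate 1 (-2.03), STRA8 without NGI-1 replicate 1 (-1.47), and ITM2C without copanlisib replicate 1 (0.99). LOC644231 did so without NGI-1 replicate 2 (1.11) and copanlisib replicate 2 (0.97), C11orf75 without NGI-1 replicate 1 (0.88) and either copanlisib library (1.20 and 1.39), and LOC100288073 whichever library was left out (1.32 to 1.79). NLRP7, a member of the NLR family, had 31.5 and 24.6 CPM with NGI-1, 56.4 and 47.2 CPM with copanlisib, and 4.08 and 3.85 CPM with DMSO (-0.88 ± 0.18, adjusted p = 0.0015). It was far above the vehicle with both compounds, and lost its call without NGI-1 replicate 2 (-0.72, adjusted p = 0.073) and copanlisib replicate 1 (-0.75, adjusted p = 0.062).

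In TMD8 the same comparison at 24 h called 153 genes higher (1.1%) and 46 lower (0.331%), 1.43% in all. Of the 693 genes called in HBL1, 71 were called in the same direction in TMD8 (10.2% of the 693, and 35.7% of the 199 called in TMD8), and 4 in the opposite direction. Whether called there or not, 508 of the 693 (73.3%) had the same sign in TMD8, against 54.4% of all genes. The ER chaperones were called for 20 of 28 members in TMD8, each higher with NGI-1, with a median of 0.90. HSPA5 differed by 1.55 ± 0.14, with 1420 and 1300 CPM with NGI-1 and 495 and 430 CPM with copanlisib in TMD8. TTC17 differed by 1.37 ± 0.09, close to its value in HBL1. Cholesterol and fatty acid genes were called for 6 members in TMD8, each higher, and mitotic genes for 1, which was lower, with a median of 0.12. LTB (-1.40), IGJ (-0.80) and IL4R (-0.53) were lower with NGI-1 in TMD8 too.

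**Figure D5:**
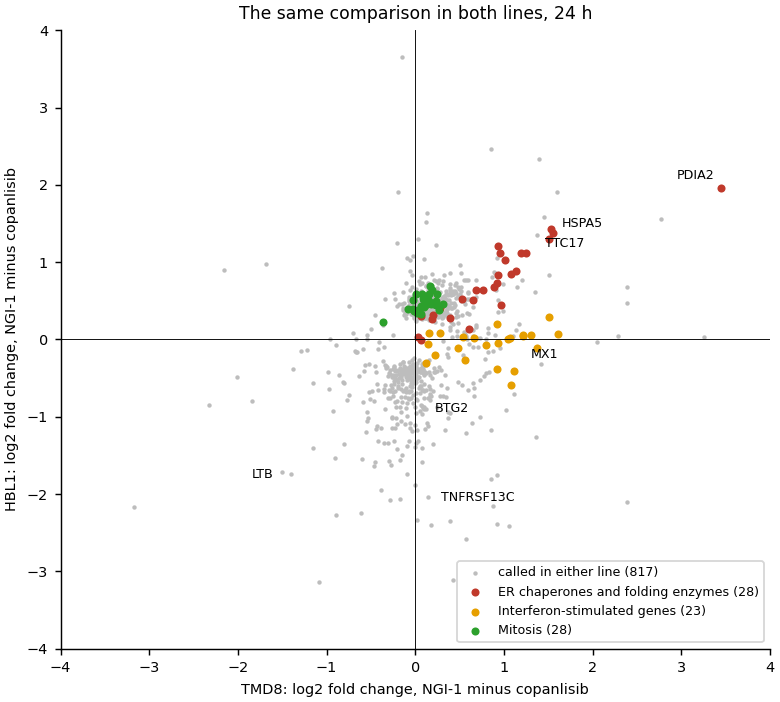
Log2 fold change between NGI-1 and copanlisib at 24 h in HBL1 (vertical axis) and TMD8 (horizontal axis), 1 point a gene, for the 817 genes called in either line (grey) and the tested members of 3 lists (coloured, whether called or not), with 2 genes beyond the axes. Most ER chaperones lie above 0 in both lines (medians 0.66 in HBL1 and 0.90 in TMD8), interferon-stimulated genes spread to the right (medians 0 in HBL1 and 0.93 in TMD8), and mitotic genes lie above 0 in HBL1 (medians 0.46 in HBL1 and 0.12 in TMD8).

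The difference between the lines was tested as an interaction, HBL1 minus TMD8. It was positive for 14 genes (0.101%) and negative for 90 (0.648%), 0.749% in all. BTG2 had 569 and 523 CPM with NGI-1 and 514 and 507 CPM with copanlisib in TMD8, and the lines differed by -0.99 (adjusted p = 1.1e-07). TNFRSF13C had 18.2 and 20.9 CPM with NGI-1 and 15.4 and 20.3 CPM with copanlisib in TMD8, and differed by -2.18 (adjusted p = 1.4e-05). SEPTIN9 differed by -0.97 (adjusted p = 1e-05). BTG2, TNFRSF13C and SEPTIN9 were lower with NGI-1 in HBL1, while in TMD8 their fold changes of 0.10, 0.14 and 0.09 were not called.

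Interferon-stimulated genes separated the lines. In HBL1 edgeR and DESeq2 called 0 of 23, with 4 at an unadjusted p under 0.05, each lower with NGI-1, and a median of 0. In TMD8 17 were higher with NGI-1, with a median of 0.93, and 11 differed between the lines. MX1, an antiviral GTPase, had 119 and 122 CPM with NGI-1 and 106 and 128 CPM with copanlisib in HBL1 (0.04 ± 0.12), which overlapped. In TMD8 it had 387 and 347 CPM with NGI-1 and 166 and 149 CPM with copanlisib (1.22 ± 0.11), and the lines differed by -1.18 (adjusted p = 1.9e-05). Positive differences between the lines had the smallest adjusted p for UBR7, a ubiquitin ligase of histones (0.78, adjusted p = 0.0025), DSCC1, of the cohesion machinery (0.85, adjusted p = 0.0072), the guidance factor SLIT1 (2.11, adjusted p = 0.012) and the fatty acid transporter CD36 (1.31, adjusted p = 0.021). CD36 had 166 and 132 CPM with NGI-1 and 86.3 and 69.6 CPM with copanlisib in HBL1, and 159 and 149 CPM with NGI-1 and 217 and 182 CPM with copanlisib in TMD8. Within HBL1 at 24 h, UBR7 was at 0.32 and not called (edgeR adjusted p = 0.064). DSCC1 (0.61), SLIT1 (1.91) and CD36 (0.93) were called higher with NGI-1 there. SLIT1 was below 4 CPM in the 4 HBL1 libraries, and its value there rests on few reads. Within HBL1 the higher levels with NGI-1 lost their calls for SLIT1 without NGI-1 replicate 2 (1.30) and copanlisib replicate 1 (1.24), for CD36 without NGI-1 replicate 1 (0.75) and copanlisib replicate 2 (0.79), and for DSCC1 without copanlisib replicate 1 (0.47).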

How the data were processed

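RNA from HBL1 and TMD8 cells was sequenced in 48 libraries. The authors deposited raw read counts per gene, made with HTSeq on hg19 per the submitters' processing notes; versions, aligner and strand setting are not given in the sources used here. Rows without a gene identifier (3449 of 25066) held 0.815% of reads and were kept, and 27 symbols turned into dates by a spreadsheet were restored. All 48 libraries were fitted with 1 mean for each of 24 groups in edgeR 4.0.16 (R 4.3.3, TMM scaling, filterByExpr, quasi-likelihood F test), which kept 13881 of 25066 genes. The biological coefficient of variation from the common dispersion was 7.34%. P-values were adjusted by Benjamini-Hochberg within each comparison, and calls had an adjusted p under 0.05. Totals per library ranged from 7165377 to 11999050 reads. The fits were tested on simulated data. Alternatives were other size factors (RLE), other filters, DESeq2 1.42.0, fewer libraries, replicate blocks and leaving out each library.

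Genes were named by rule: 12 higher and 12 lower genes of largest fold change whose log2 CPM (prior count 2) averaged 1 or more, up to 3 called members of each list, 25 fixed names, and for the line and time differences 4 genes in each direction. AARS, CTSB, DDOST, EDEM1, ETV4, GAA, JUNB, MIRHG2, OSTC, PRDM1, UAP1 and UBE2J1 were named after their values were seen. Members and gene lists were chosen with earlier results of these data known. Promoters come from a RefSeq table on GRCh38.p14. Overlapping genes cannot be told apart where strand is not known; among named genes with an overlapping RefSeq neighbour are, for example, ALG3, BCL6, CCL3, CIITA, CLEC17A, CTSD, CXCL16, DDIT3, DERL2, DPAGT1, FADS1, FAIM3, GINS4, HMMR, IL10, IL4I1, KIF20A, LOC100288073, NLRP7, PIK3CA, PIK3CD, PLK1, PRKCSH, SEPTIN9, SLIT1 and STT3A.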

Additional observations from a re-analysis of the deposited data

Results flagged for a closer look

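The effect of NGI-1 relative to copanlisib at 24 h differed between the lines for 15 of the 115 genes whose log2 fold change is given above. The test was edgeR's interaction test (HBL1 minus TMD8, log2, adjusted p under 0.05), which called 0.749% of all genes. Because 8 genes were named for their small adjusted p in this same test, the count is partly fixed by that choice. Most of the others were named for their calls or fold changes in HBL1 at 24 h, whose libraries enter this test too. The count therefore cannot be judged against the share of all genes. The effect was more negative in HBL1 for EGR2 (-4.15), VPREB3 (-2.75), TNFRSF13C (-2.18), DUSP2 (-1.72), ID3 (-1.39), MX1 (-1.18), FAIM3 (-1.16), BTG2 (-0.99), SEPTIN9 (-0.97) and XBP1 (-0.78). It was more positive in HBL1 for SLIT1 (2.11), CD36 (1.31), DSCC1 (0.85), UBR7 (0.78) and CDC45L (0.64).

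The effect in HBL1 also differed between times (24 h minus 3 h, log2, same test) for 42 of these 115 genes, against 1.57% of all genes. This count too is partly fixed, because 8 genes were named for their small adjusted p in the time difference. Most of the others were named for their values at 24 h, whose libraries enter this test as well. It cannot be judged against the share of all genes either. Among signalling and cytokine genes the difference was -5.04 for EGR2, -3.61 for EGR1, -3.46 for IL10, -2.64 for TNF, -2.04 for DUSP2, -1.36 for NFATC1, -1.27 for NFKBIA, -1.09 for IL4I1, -0.92 for RASGRF1, -0.88 for MYC, -0.80 for NFKBIE and -0.67 for IL4R. EGR2 rests on few reads at 24 h. Among B-cell genes it was -2.62 for VPREB3, -2.11 for ICOSLG, -2.03 for RGS1, -1.71 for TNFRSF13C, -1.32 for ID3, -1.30 for FAIM3, -1.04 for IGJ, -0.97 for CLEC17A and -0.78 for CIITA. It was -0.80 for UAP1, -0.79 for HERPUD1 and -0.70 for XBP1 among ER genes, and -2.31 for STRA8, -1.22 for BIK, -0.61 for BTG2 and -0.51 for SEPTIN9 among others.

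The effect was more positive at 24 h than at 3 h for the mitotic genes KIF20A (0.84), PLK1 (0.77), HMMR (0.68) and TOP2A (0.62), and for the lipid genes FADS1 (0.63), EBP (0.54) and SCD (0.54). The same held for SLIT1 (2.71), PDIA2 (2.09), ITM2C (1.28), TTC17 (1.12), PIK3CG (0.90), PRKCSH (0.83) and KIAA0040 (0.73).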

How the results depend on the processing

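Of 95 named genes called between the compounds at 24 h, 39 were called whichever of the 4 libraries was left out, and 77 under every other alternative. With a library left out, calls at 24 h numbered 155 to 237 higher and 133 to 201 lower, at 6 h 277 to 408 and 177 to 243, and at 3 h 126 to 246 and 77 to 101. They numbered 3 to 42 and 44 to 88 for the line difference (HBL1 minus TMD8), the 42 coming without TMD8 copanlisib replicate 2, and 35 to 69 and 65 to 116 for the time difference (24 h minus 3 h). The cause was not tested.

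With no filter on low counts the line difference had 48 higher and 163 lower calls and the time difference 189 lower. With the libraries of the contrast alone, there were 217 lower at 6 h, 119 higher and 38 lower at 3 h, 7 higher for the line difference and 43 higher for the time difference. HBL1 libraries alone gave 66 higher for the time difference.

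The labels give no shared culture or day for replicates of the same number, and with 2 numbers the pairing cannot be settled. Deviations of same-numbered libraries from the group means correlated at 0.13 between NGI-1 and copanlisib. Over the 6 pairs of HBL1 groups at 24 h they correlated at 0.13 to 0.18, all positive. Summed MHC class II levels were higher in replicate 1 with NGI-1 (2690 against 2160 CPM), copanlisib (3530 against 2760 CPM) and DMSO (2530 against 1970 CPM). Those of ER chaperones were higher in replicate 1 with NGI-1 and DMSO but not with copanlisib (5960 against 6060 CPM). Leaving out a library also unbalances the replicate numbers between the compounds. A replicate block gave 517 higher and 429 lower at 24 h, 244 lower at 3 h, 52 higher and 143 lower for the line difference and 164 higher for the time difference. Calls at 24 h were then 9 lower for MHC class II (12 with the block within each line and time), 14 higher for DNA replication (27) and 5 lower for the STAT3 list (9). A replicate block within each line and time gave 1070 higher and 847 lower at 24 h, 1225 and 937 at 6 h, 713 and 582 at 3 h, 327 and 369 for the line difference, and 610 and 434 for the time difference.

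Of the genes not called, XBP1 turned to -0.01 with RLE size factors, no filter, DESeq2 or the libraries of the contrast alone and to -0.02 with a stricter filter, and PIK3CD to -0.01 with the stricter filter. With a library left out, values lay between -0.03 and 0.05 for XBP1, -0.18 and 0.05 for PIK3CA, -0.03 and 0.08 for PIK3CD, -0.23 and 0.14 for FOXO1, -1.56 and 4.11 for CCL3, -0.53 and 1.78 for CCL4, -0.07 and 0.25 for IRF4, -0.09 and 0.18 for MX1, and -0.08 and 0.07 for KIAA0040, and changed sign within each range.

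Each group holds 2 libraries of about the same depth and each compound a single concentration, so dose, exposure and the spread between independent cultures cannot be told apart from the compound. Genes under a few CPM, such as EGR2, CCL3 and CCL4, rest on few reads. Counts give RNA and neither protein nor glycosylation.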
